A study of Malus domestica with 6 samples.

Results

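A group of 84 genes stood higher in the pulp library Granny Smith replicate 2 than in the other Granny Smith libraries. The rule took every gene with at least 5 FPKM in replicate 2. This level also had to be at least 2 times that of both replicate 1 and replicate 3. FPKM is a read count scaled to the length of the gene and by a factor for each library. Of 46558 listed genes, 34279 were above 0 in a library, 12618 had at least 5 FPKM in Granny Smith replicate 2, and 85 passed the rule. One of them is not reported here. None of the 94 genes in the study's tables of volatile metabolism passed. The Granny Smith values therefore chose the genes and are given as a description, without a test. The Jonagold values were not used by the rule.

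The study measured gene expression in the pulp of the green-skinned apple Granny Smith and the red-skinned apple Jonagold. There were 3 libraries per cultivar. The study took RNA from both cultivars at the same number of days after flowering. Its fruit measurements gave more internal ethylene and a lower firmness in Jonagold, and they are not given for single pools. In both cultivars the fruits were unbagged and harvested at full ripening. The pulp of several fruits was pooled for each biological replicate. A library is thus an average over the fruits of its pool, so that the spread between fruits is not seen, and cultivar and fruit age relative to each cultivar's own ripening cannot be told apart.

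Apple is a climacteric fruit. A burst of ethylene at ripening switches on many genes at once, among them genes of cell wall loosening, starch breakdown and ester formation. Fruits of one harvest do not pass this burst on the same day, and Granny Smith ripens later than Jonagold. The comparison with Jonagold asks whether the genes raised in the single Granny Smith pool are also the genes that are high in Jonagold, as would be looked for in a riper pool.

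The files list the genes by identifiers of the GDDH13 apple genome, which give the chromosome and the order along it. None of the 84 genes is among the volatile pathway and primer genes that the study lists by identifier. Its other transcription factors were not checked. Of 46558 identifiers, 0 matched the RefSeq gene table, so that functions and sequences are not given. No pulp marker could be checked for the same reason. From 17081863 to 17259098 reads were recovered per Granny Smith library and from 14193282 to 16353408 per Jonagold library, on a scale that may differ from the true reads by a divisor common to all of them. FPKM summed over all genes lay between 554856 and 599617 in the Granny Smith libraries and between 755644 and 800812 in the Jonagold libraries. Relative to Granny Smith replicate 1, FPKM per recovered read was 0.956 and 0.942 in replicates 2 and 3 and 1.29 to 1.46 in Jonagold. The Jonagold factors are larger than the recovered reads alone would give. They enter every difference between the cultivars, and what sets them was not tested.

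Most of the 84 genes were of low to moderate level and only a little past the 2-fold bound. FPKM in Granny Smith replicate 2 ranged from 5.07 to 1517 with a median of 11.1, and 46 genes had at least 10 FPKM, 10 at least 50 FPKM and 3 at least 100 FPKM. The ratio of replicate 2 to the higher of replicates 1 and 3 ranged from 2.01 to 15.3 with a median of 2.50. This ratio was at least 3 in 20 genes, at least 4 in 4 genes and at least 10 in 2 genes. The reads behind these levels in replicate 2 numbered 26 to 32861 per gene with a median of 259, and 5 genes had fewer than 50.

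The summed level of the group rested on a few genes. In Granny Smith the sum over the 84 genes was 1547, 4394 and 1527 FPKM in replicates 1, 2 and 3. In Jonagold it was 5171, 16395 and 14277 FPKM. The median level of the group, which the few abundant genes do not set, was 3.49, 11.1 and 4.10 FPKM in the Granny Smith libraries and 3.26, 3.81 and 3.92 FPKM in the Jonagold libraries. The median in each Jonagold library was thus near that of Granny Smith replicates 1 and 3.

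MD13G1161400 on chromosome 13 was the most abundant of the group in Granny Smith replicate 2. It had 449, 1517 and 479 FPKM in Granny Smith replicates 1, 2 and 3. MD02G1192600 on chromosome 2 came next, with 627, 1266 and 482 FPKM. Beside these 2 genes, only MD09G1146300 on chromosome 9 passed 100 FPKM, with 27.4, 104 and 36.1 FPKM.

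The largest ratios belonged to MD12G1086600 on chromosome 12 and MD16G1051600 on chromosome 16. MD12G1086600 had 3.58, 54.6 and 2.68 FPKM in the Granny Smith libraries, and MD16G1051600 had 0.665, 12.6 and 0.835 FPKM. Replicate 2 was 15.3 and 15.1 times the higher other library in these genes, and the next largest ratio was 4.62.

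Genes near the bounds were much alike on either side. MD15G1045000, with 8.91, 18.7 and 9.30 FPKM, passed the 2-fold bound most narrowly. MD02G1010500, with 4.57, 11.1 and 5.57 FPKM, and MD00G1033200, with 1.09, 5.03 and 2.52 FPKM, missed it most narrowly. At the lower bound of level, MD15G1351800 passed with 5.07 FPKM and MD15G1116000 with 5.10 FPKM, whereas MD16G1160400 missed it with 4.996 FPKM and MD01G1179500 with 4.97 FPKM.

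Compared with the Granny Smith libraries that were not raised, the genes that could be tested were about as often called lower as higher in Jonagold. With Granny Smith replicate 2 left out of the comparison, 79 of the 84 genes passed the filter on low values, and 20 of them (25.3%) were called higher in Jonagold and 21 (26.6%) lower. Called means an adjusted p below 0.05 by limma on log2(FPKM + 1), with Benjamini-Hochberg adjustment over all genes tested, and a difference of at least 1 on that log2 scale. In the same fit 12.5% of all genes tested were called higher and 8.78% lower. The 5 genes under the filter each had a negative difference with all libraries. MD07G1265900, MD11G1315600 and MD16G1090700 among them were called lower there, so that the filter took genes from the lower side only. The median difference of the 79 genes, Jonagold minus Granny Smith, was -0.16, beside 0.01 over all genes tested. All 3 Jonagold libraries lay above both Granny Smith replicates 1 and 3 for 27 of the 84 genes, beside 33.6% of all genes tested, and below both for 32 genes, beside 33.3%. The rule also bounded replicates 1 and 3 from above through replicate 2, so that these counts are read as a description. In pooled tissue, fewer cells of a type and less RNA per cell cannot be told apart.

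With all 6 libraries, replicate 2 entered the Granny Smith mean and so lowered each difference of the chosen genes. In this comparison 15 of the 84 genes (17.9%) were called higher in Jonagold, 32 (38.1%) lower and 37 were not called, beside 21.3% called over all 20993 genes tested, 12.0% as higher and 9.34% as lower. These shares are in part set by the rule, and nothing is read from their distance to the background. The calls and differences given for single genes below are from this comparison unless stated, so that the chosen replicate 2 enters them.

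**Figure D1:**
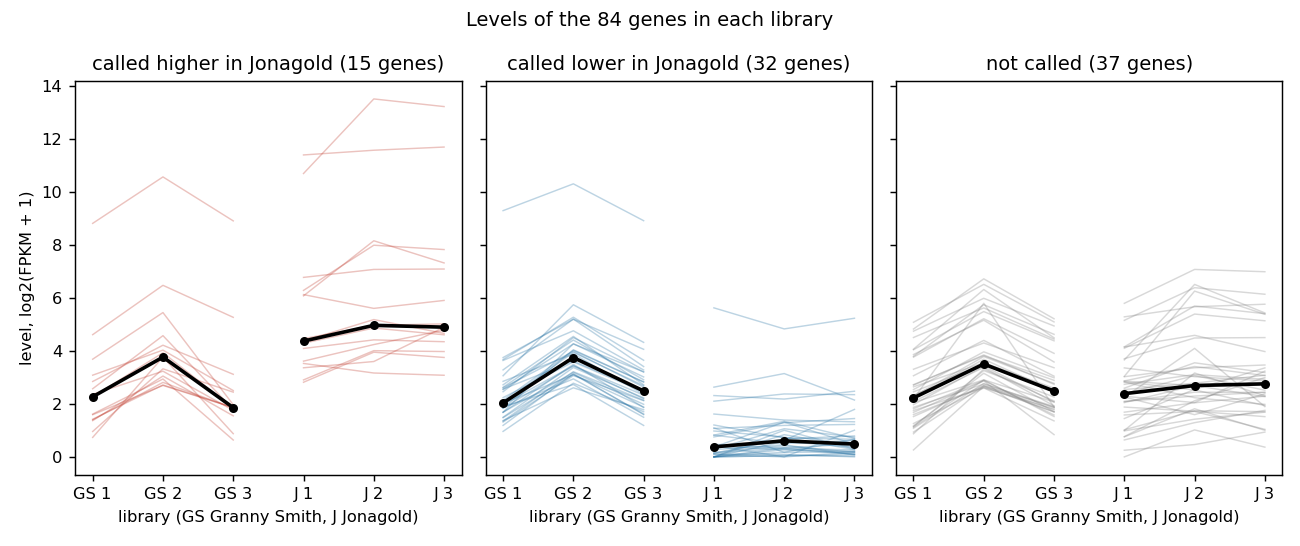
Level of each of the 84 genes in the 6 libraries, as log2(FPKM + 1), split by the call between the cultivars; thin lines are genes and the black line is the median of the panel. The 15 genes called higher and the 32 called lower have median FPKM of 12.6 and 12.5 in Granny Smith replicate 2. Their medians are 3.82 and 3.11 FPKM in replicate 1 and 2.63 and 4.61 FPKM in replicate 3. The split by call itself makes them separate in Jonagold. Over all genes tested 12.0% were called higher and 9.34% lower.

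The differences spread widely, from -4.28 to 7.85 on the log2(FPKM + 1) scale, with quartiles of -1.80 and 0.70 and a median of -0.62, which replicate 2 lowers. All 3 Jonagold libraries lay above all 3 Granny Smith libraries for 14 genes and below all 3 for 32 genes, beside 30.4% and 29.2% of all genes tested. The former count is lowered by the rule, which sets replicate 2 above the other Granny Smith libraries. In 38 genes the groups overlapped, and in 5 of these all Jonagold libraries lay between replicate 2 and the higher of the other Granny Smith libraries.

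With Jonagold replicate 1 left out and all Granny Smith libraries kept, 18 genes were called higher and 25 lower, beside 11.5% and 9.38% of all genes tested. Of the 46 genes with at least 10 FPKM in Granny Smith replicate 2, 8 were called higher and 19 lower with all libraries. Of the 20 genes with a ratio of at least 3, 7 were called higher and 7 lower, with a median of 0.14. With all libraries 12.0% of all genes tested were called higher and 9.34% lower. Granny Smith replicate 2 lowers the differences of both choices of genes.

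**Figure D2:**
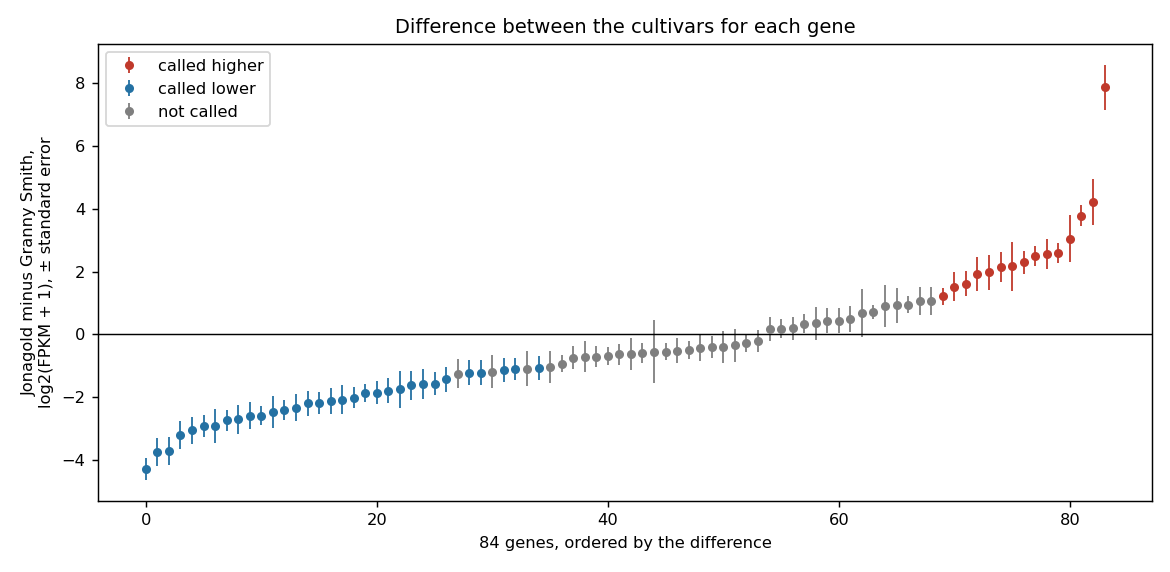
Difference between the cultivars for each of the 84 genes, Jonagold minus Granny Smith on the log2(FPKM + 1) scale, ordered by size; points are limma estimates and bars are ± 1 standard error. The differences run from -4.28 to 7.85, with 32 genes called lower, 37 not called and 15 called higher. Over all genes tested 9.34% were called lower and 12.0% higher. Granny Smith replicate 2, which chose the genes, is in this fit and lowers each difference. Without it 21 of 79 genes tested were called lower and 20 higher, beside 8.78% and 12.5%.

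The genes called higher in Jonagold had median levels of 3.82, 12.6 and 2.63 FPKM in the Granny Smith libraries and 19.7, 30.3 and 28.8 FPKM in the Jonagold libraries. Their differences ranged from 1.21 to 7.85 with a median of 2.29. In 12 of the 15 genes the cultivars did not overlap, beside 30.4% of all genes tested with Jonagold above. A call itself makes such a separation more likely. The call was kept in 10 of the 15 when any 1 library was left out.

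MD16G1160500 on chromosome 16 differed most. It had 11.9, 42.6 and 2.91 FPKM in Granny Smith and 2697, 3050 and 3315 FPKM in Jonagold. Each Jonagold library was far above Granny Smith replicate 2, and the difference was 7.85 (SE 0.71, adjusted p = 5.3e-05 by limma). The identifier listed just before it, MD16G1160400, which missed the bound of 5 FPKM, was of the same shape, with 0.0697, 4.996 and 0.722 FPKM in Granny Smith and 136, 235 and 190 FPKM in Jonagold. It is named beside its neighbour because it lay at the bound, and it is not counted among the 84 genes.

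MD15G1077000 on chromosome 15 had 4.95, 22.9 and 2.46 FPKM in Granny Smith and 66.6, 285 and 159 FPKM in Jonagold. The cultivars did not overlap, and the difference was 4.21 (SE 0.72, adjusted p = 0.0017). MD06G1010300 on chromosome 6 had 7.48, 15.3 and 4.67 FPKM in Granny Smith and 109, 134 and 135 FPKM in Jonagold, with a difference of 3.77 (SE 0.33, adjusted p = 4.5e-05). Its 3 Jonagold libraries were close together, unlike those of MD15G1077000.

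MD13G1161400, the most abundant gene of the group, was also called higher in Jonagold. It had 1658, 11678 and 9561 FPKM in the Jonagold libraries, beside 449 to 1517 FPKM in Granny Smith. Jonagold replicate 1 was little above Granny Smith replicate 2, whereas Jonagold replicates 2 and 3 were well above it. The difference was 3.05 (SE 0.76, adjusted p = 0.011), and it ranged from 2.53 to 3.94 with single libraries left out. This gene made up most of the summed level of the group in Jonagold replicates 2 and 3.

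MD16G1051600, with one of the largest ratios within Granny Smith, had 9.29, 11.1 and 28.8 FPKM in Jonagold. Granny Smith replicate 2, at 12.6 FPKM, lay within the Jonagold range. Its difference of 2.16 (SE 0.77, adjusted p = 0.047) lost the call when any library other than Granny Smith replicate 2 was left out. Its differences over the 6 fits with a library left out ranged from 1.63 to 3.15. The value without Granny Smith replicate 2 was 3.15 (SE 0.42, adjusted p = 0.0011 by limma). MD01G1062800 on chromosome 1 had 23.5, 88.0 and 37.5 FPKM in Granny Smith and 77.0, 253 and 226 FPKM in Jonagold. The cultivars overlapped through Jonagold replicate 1, and the difference of 1.91 (SE 0.55, adjusted p = 0.019) lost the call without Granny Smith replicate 1, Granny Smith replicate 3, Jonagold replicate 2 or Jonagold replicate 3, with an adjusted p of up to 0.069.

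Most genes called lower in Jonagold were at a low level there. Their median levels were 3.11, 12.5 and 4.61 FPKM in the Granny Smith libraries and 0.299, 0.522 and 0.399 FPKM in the Jonagold libraries. The Jonagold mean was under 1 FPKM in 24 of the 32 genes, 19 had at most 20 reads over all Jonagold libraries, and 6 had at most 3 reads in each of them. Among the 8 with a mean of at least 1 FPKM, MD03G1173700, MD14G1190200 and MD17G1132900 had means of 5.49, 4.03 and 3.86 FPKM in Jonagold, and they are named after their values were seen. Granny Smith replicates 1 and 3, which were not raised, had a mean above the Jonagold mean in all 32 genes. The call all but fixes this count. It needs a difference of at least 1, and replicate 2 is only 1 of the 3 libraries in the Granny Smith mean. Nothing is read from the count. In 29 of the 32 the cultivars did not overlap, beside 29.2% of all genes tested with Jonagold below. The call makes this more likely too. Of the 32 genes, 21 kept the call when any 1 library was left out. For genes with so few reads the size of the difference depends on the pseudocount of 1 FPKM, and it is no bound on the fold.

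MD02G1192600, the second most abundant gene of the group, had the largest negative difference and by far the highest Jonagold level of the genes called lower. It had 48.4, 27.5 and 36.6 FPKM in Jonagold, from 530 to 831 reads, beside 482 to 1266 FPKM in Granny Smith. Every Jonagold library was far below every Granny Smith library, and the difference was -4.28 (SE 0.35, adjusted p = 3.0e-05 by limma). Granny Smith replicate 2, which chose the gene, enlarges this difference. Without that library it was -3.88 (SE 0.24, adjusted p = 4.3e-05 by limma).

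MD15G1428700 on chromosome 15 had 11.8, 37.6 and 11.5 FPKM in Granny Smith and 2, 0 and 6 reads in the Jonagold libraries, with a difference of -3.72 (SE 0.44, adjusted p = 2.3e-04). MD11G1169900 on chromosome 11 had 8.74, 35.8 and 9.63 FPKM in Granny Smith and 4, 3 and 1 reads in Jonagold, with a difference of -3.70 (SE 0.45, adjusted p = 2.7e-04). In both genes Granny Smith replicates 1 and 3 were nearly equal and Jonagold was close to undetected. MD16G1042700 on chromosome 16 had 5.59, 22.4 and 5.60 FPKM in Granny Smith and 0, 4 and 1 reads in Jonagold. MD02G1157800 on chromosome 2 had 5.18, 20.3 and 6.52 FPKM in Granny Smith and 4, 8 and 1 reads in Jonagold. MD10G1171800 on chromosome 10 had 5.10, 14.8 and 5.21 FPKM in Granny Smith and 0, 3 and 2 reads in Jonagold. The differences of these last genes were -3.19, -3.05 and -2.91. Granny Smith replicate 2 enlarges all of these negative differences. Without it they were -3.19 for MD15G1428700, -3.08 for MD11G1169900 and -2.58 for MD16G1042700. For MD02G1157800 and MD10G1171800 they were then -2.50 and -2.46. MD08G1007200 on chromosome 8, among the 5 largest ratios within Granny Smith, had 2.21, 10.3 and 2.64 FPKM there and 0, 1 and 4 reads in Jonagold.

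Among the 37 genes not called, 15 had a positive and 22 a negative difference, from -1.24 to 1.07. Their median levels in Jonagold, 4.23, 5.47 and 5.76 FPKM, were above the 3.68 FPKM of Granny Smith replicate 1 and below the 10.4 FPKM of replicate 2, and replicate 3 was at 4.59 FPKM. A missed threshold does not show that the cultivars had the same level.

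Several abundant genes of the group were among those not called. MD08G1131700 on chromosome 8 had 32.9, 90.3 and 33.2 FPKM in Granny Smith and 54.6, 134 and 126 FPKM in Jonagold, with a difference of 1.06 (SE 0.45, adjusted p = 0.083). MD05G1215200 on chromosome 5 had 15.8, 78.8 and 21.5 FPKM in Granny Smith and 34.7, 82.7 and 69.5 FPKM in Jonagold, with a difference of 0.93 (SE 0.56, adjusted p = 0.20). In both genes each Jonagold library was above Granny Smith replicates 1 and 3, and the high level of replicate 2 made the cultivars overlap. Without Granny Smith replicate 2 both were called higher, with differences of 1.53 (SE 0.36, adjusted p = 0.013) for MD08G1131700 and 1.61 (SE 0.35, adjusted p = 0.0088) for MD05G1215200. MD08G1131700 was also called without Jonagold replicate 1, at 1.47. MD09G1146300 had 16.2, 41.0 and 34.2 FPKM in Jonagold, with a difference of -0.71 (SE 0.50, adjusted p = 0.27). MD17G1281900 on chromosome 17 had 25.8, 62.4 and 29.8 FPKM in Granny Smith and 38.0, 49.8 and 53.3 FPKM in Jonagold, all between replicate 2 and the other Granny Smith libraries. Its difference of 0.35 (SE 0.30, adjusted p = 0.37) was -0.049 with FPKM totals made equal. Without Granny Smith replicate 2 the difference was 0.73 (SE 0.17, adjusted p = 0.012 by limma), under the bound of 1 for a call.

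MD12G1086600 was raised in 1 library of each cultivar. It had 3.76, 16.1 and 2.73 FPKM in Jonagold, so that replicate 2 was the highest there as in Granny Smith. The difference of -0.54 (SE 1.00, adjusted p = 0.68) was 0.71 with Granny Smith replicate 2 left out.

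The order of the Jonagold libraries, which the rule did not use, was uneven in these genes. Jonagold replicate 1 was the lowest Jonagold library in 57 of the 84 genes (67.9%), beside 36.0% of all genes tested, and the highest in 16 genes (19.0%), beside 40.6%. Jonagold replicates 2 and 3 both had at least 2 times the level of replicate 1 in 30 genes (35.7%), beside 3.63% of all genes tested. Among the 50 genes with at least 100 Jonagold reads, replicate 1 was the lowest in 37 (74.0%, background 35.1%) and both others were at least 2 times as high in 16 (32.0%, background 2.11%). These counts were noticed after the values were seen, and the genes share their libraries, so that no test was made.

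**Figure D3:**
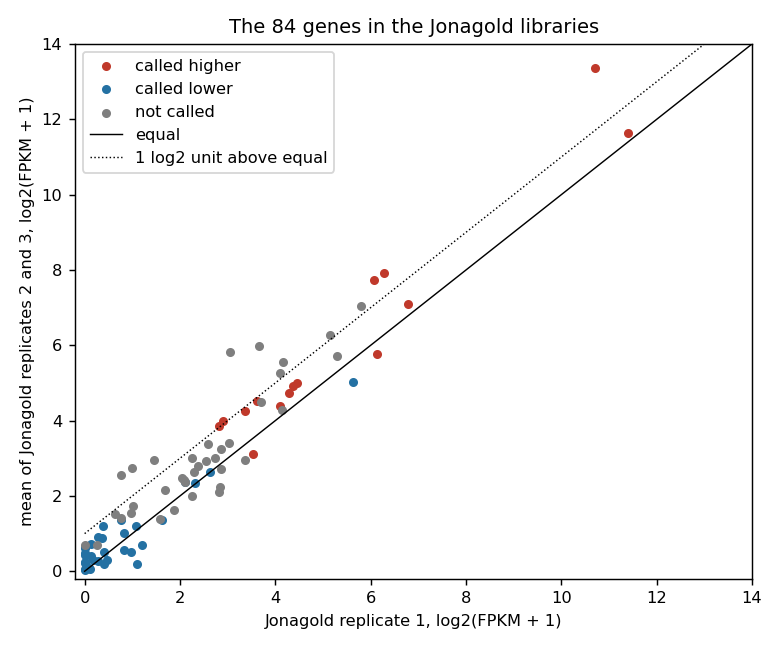
Level of the 84 genes in Jonagold replicate 1 (horizontal) and the mean of the log2 levels in Jonagold replicates 2 and 3 (vertical), both as log2(FPKM + 1); points are genes, colored by call, the solid line marks equal levels and the dotted line 1 log2 unit above. Most points lie above the solid line, and replicate 1 was the lowest library in 57 genes.

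Jonagold replicate 1 was mostly low in the genes called higher and in those not called, and less clearly so in those called lower. Replicate 1 was the lowest in 13 of the 15 genes called higher, 17 of the 32 called lower and 27 of the 37 not called. The median of replicate 1 minus the mean of replicates 2 and 3 was -0.39 on the log2(FPKM + 1) scale over the 84 genes, beside 0.02 over all genes tested. By class it was -0.55 in the genes called higher, -0.45 in those not called and -0.11 in those called lower, where 16 of the 32 had at most 3 reads in replicate 1. MD13G1161400, MD15G1077000, MD01G1062800, MD08G1131700 and MD05G1215200 all had this shape, with replicates 2 and 3 at least 2 times replicate 1. In the same genes Granny Smith replicate 2 was the high library of its cultivar, as the rule requires. What sets Jonagold replicate 1 apart in these genes was not tested.

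Granny Smith replicate 3 was above replicate 1 in 62 of the 84 genes (73.8%), beside 45.8% of all genes tested. The median of replicate 3 minus replicate 1 was 0.19 on the log2(FPKM + 1) scale, beside -0.02 over all genes tested. The share was 9 of 15 in the genes called higher, 24 of 32 in those called lower and 29 of 37 in those not called.

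The same rule was applied to the other Granny Smith libraries for comparison. It found 75 genes raised in replicate 1 and 22 raised in replicate 3. The calls are given here with the library that chose each set left out, a comparison added after the data were seen. Of the genes raised in replicate 1, 73 were then tested and 47 (64.4%) were called higher in Jonagold and 8 (11.0%) lower, beside 12.5% and 9.38% of all genes tested, with a median difference of 2.02. Of those raised in replicate 3, 16 were tested and 6 were called higher and 6 lower, beside 12.0% and 8.74%, with a median of 0.22. A further 40 genes were at most 0.5 times both other libraries in replicate 2, with both others at least 5 FPKM, and 5 of these were called higher and 6 lower, beside 12.5% and 8.78%, with a median of -0.21. For the genes raised in replicate 2 the counts were 20 and 21 of 79, as above. These sets share the Jonagold libraries and were each chosen from Granny Smith values, so that they are set side by side without a test.

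**Figure D4:**
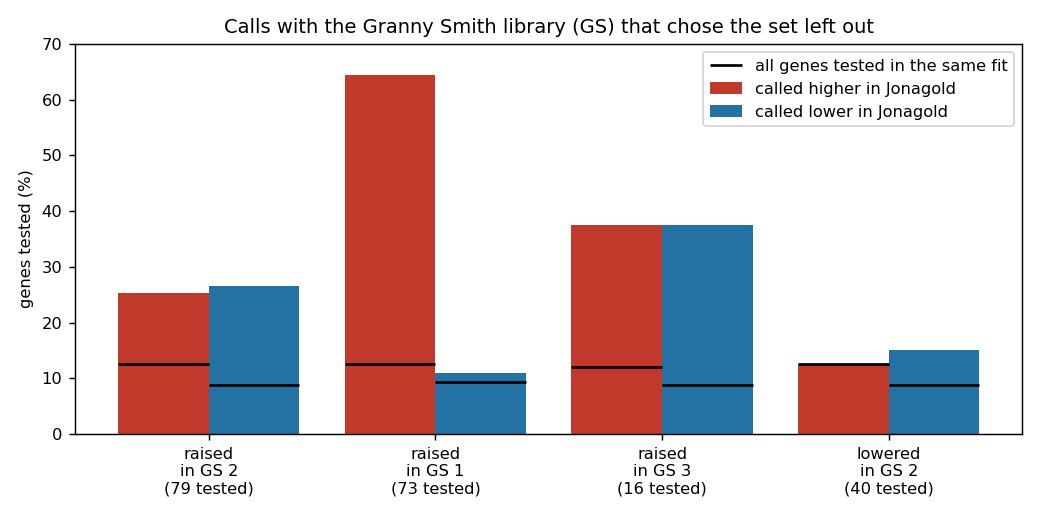
Percent of the genes tested that were called higher or lower in Jonagold, for sets chosen from the Granny Smith (GS) libraries, each with the library that chose it left out; bars start at 0 and black lines mark the share over all genes tested in the same fit. The genes raised in replicate 2 had 25.3% higher and 26.6% lower, and those raised in replicate 1 had 64.4% and 11.0%.

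The order of the Jonagold libraries also differed in value between these sets. Over all genes tested Jonagold replicate 1 was the lowest in 36.0% and the highest in 40.6%. Jonagold replicate 1 was the lowest in 22 (29.3%) of the 75 genes raised in Granny Smith replicate 1 and the highest in 45 (60.0%) of them. Of the 22 genes raised in Granny Smith replicate 3, it was the lowest in 2 (9.09%) and the highest in 14 (63.6%). It was the lowest in 3 of the 40 genes lowered in Granny Smith replicate 2 and the highest in 28 of them.

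By position, the 84 genes were spread over all chromosomes. Chromosome 15 held the most, with 14 genes (16.7%) beside 9.45% of all genes tested, and chromosome 16 held 8 (9.52%, beside 5.78%). Of the 14 genes on chromosome 15, 4 were called higher, 4 lower and 6 were not called. Of the 84 genes, 5 (5.95%) were next to another one in the list, in 2 runs.

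The longer run was of MD15G1348800, MD15G1348900 and MD15G1349000 on chromosome 15. MD15G1348800 had 4.14, 8.42 and 2.38 FPKM in Granny Smith and 19.7, 35.3 and 24.3 FPKM in Jonagold, with a difference of 2.29 (SE 0.36, adjusted p = 0.0010 by limma). MD15G1348900 had 2.06, 6.67 and 0.555 FPKM in Granny Smith and 16.1, 20.4 and 19.4 FPKM in Jonagold, with a difference of 2.55 (SE 0.48, adjusted p = 0.0028). MD15G1349000 had 3.82, 14.3 and 2.59 FPKM in Granny Smith and 21.0, 30.3 and 31.5 FPKM in Jonagold, with a difference of 2.13 (SE 0.47, adjusted p = 0.0060). All 3 genes were called higher, with no overlap between the cultivars. Neighbours with similar sequence can share reads, and whether these genes do was not tested.

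The other run was of MD17G1099600 and MD17G1099800 on chromosome 17, whose members parted in Jonagold. MD17G1099600 had 1.68, 5.57 and 2.65 FPKM in Granny Smith and 18.6, 28.1 and 23.4 FPKM in Jonagold, with a difference of 2.59 (SE 0.31, adjusted p = 2.3e-04). MD17G1099800 had 3.88, 12.8 and 5.84 FPKM in Granny Smith and 5.04, 10.7 and 8.09 FPKM in Jonagold, with a difference of 0.16 (SE 0.38, adjusted p = 0.75). The latter difference turned negative with FPKM totals made equal and without Granny Smith replicate 1 or Jonagold replicate 2.

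The volatile pathway genes that the study names were also read in Granny Smith replicate 2. The study chose these 94 genes on these libraries, so that their direction is not independent evidence. Of the 53 called higher in Jonagold, Granny Smith replicate 2 was the highest Granny Smith library in 16, the lowest in 21 and the middle in 16. Of the 22 called lower, it was the highest in 9, the lowest in 9 and the middle in 4. A further 4 genes were not called and 15 were not tested. Over all genes tested it was the highest in 35.7%. The alcohol acyltransferase genes, whose enzymes join alcohols and acyl groups into esters, give examples chosen after their values were seen. MdAAT-8 had 0.993, 3.63 and 2.45 FPKM in Granny Smith replicates 1, 2 and 3 and 121, 242 and 161 FPKM in Jonagold. MdAAT-5 had 11.3, 2.72 and 2.57 FPKM in Granny Smith and 683, 469 and 504 FPKM in Jonagold. Replicate 2 was thus the highest Granny Smith library for MdAAT-8 and not for MdAAT-5, and in both genes it was far below every Jonagold library. It was also the highest Granny Smith library for MdAAT-2, MdAAT-3, MdAAT-6 and MdAAT-7. For MdAAT-1, MdAAT-4, MdAAT-9 and MdAAT-10 it was not.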

How the data were processed

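RNA-seq was made from pulp in 6 libraries, 3 of Granny Smith and 3 of Jonagold. The authors used GDDH13 as the reference genome and Cufflinks 2.2.1 for quantification, and deposited FPKM values in 1 column per library. Cultivar was taken from the sample labels.

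Whole reads were recovered from the steps of the FPKM values for 34278 of 34279 genes above 0 (tolerance 0.01 read), apart from a common divisor. The 20993 genes whose mean over the libraries reached 1 FPKM were tested on log2(FPKM + 1) with limma 3.58.1 (lmFit and eBayes with trend, R 4.3.3) and Benjamini-Hochberg adjustment. Calls needed an adjusted p under 0.05 and a difference of at least 1 on the log2(FPKM + 1) scale, which is stricter for low genes than a fold of 2 in FPKM. limma took the place of the study's DESeq because FPKM is not a count. p-values measure the spread between libraries. An exact permutation test of 3 against 3 libraries cannot go below 0.1. The tests were checked on simulated data.

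The genes, lists and rules were chosen with earlier results of these data known. Named genes were the 8 of highest level in Granny Smith replicate 2, the 5 of largest ratio, the 6 called genes of largest difference in each direction, those in runs of neighbours, and those at the bounds. Alternatives were other pseudocounts, filters, scalings, rules, a replicate block and each library left out.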

Additional observations from a re-analysis of the deposited data

How the results depend on the processing

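The number of genes chosen was 217 at a minimum of 2 FPKM, 46 at 10 FPKM, 286 at 1.5-fold, 20 at 3-fold and 149 to 256 with Granny Smith replicate 1 or 3 left out. Without Granny Smith replicate 2 the rule has no value. The counts called higher and lower were 6 and 12 with limma treat against 1, 38 and 85 for genes chosen at 1.5-fold, 7 and 7 at 3-fold, and 8 and 19 at a minimum of 10 FPKM. The genes chosen by fold or level were read in the fit with 12.0% of all genes tested called higher and 9.34% lower. Counts in this section include Granny Smith replicate 2 unless it is left out. They show only how the calls move with the setting. For limma treat, equal totals, the filter at 5 FPKM and the replicate block, no share over all genes tested was taken. The same holds for the fits without Jonagold replicate 2 or 3. Shares without overlap were taken only with all libraries and without Granny Smith replicate 2. Nothing is read from counts that lack such a share. At a mean of at least 5 FPKM 10 genes were called lower, of 47 tested. This filter is on the mean over both cultivars, so that genes low in Jonagold are the ones that fall below it and its counts and median say nothing of direction. Single libraries left out gave 11 to 20 called higher and 21 to 36 called lower, both 20 and 21 coming from the fit without Granny Smith replicate 2. The median difference was -0.78 with a pseudocount of 0.1, 0.19 at a mean of 5 FPKM, -0.96 with FPKM totals made equal, -0.40 at 1.5-fold, 0.14 at 3-fold and -0.89 to -0.16 with single libraries left out. Equal totals moved the median of all genes to -0.35, gave 13 higher and 39 lower calls, and left 9 genes above Granny Smith without overlap. With single libraries left out 14 to 27 genes lay above and 32 to 40 below. Without Granny Smith replicate 2 these were 27 and 32, beside 33.6% and 33.3% of all genes tested. No gene called both with all libraries and in one of these fits changed sign between them. Of the named genes, MD17G1281900 reversed to -0.049 with equal totals, MD12G1086600 to 0.71 without Granny Smith replicate 2 (range -1.25 to 0.71 with single libraries left out), and MD17G1099800 to -0.19 with equal totals, -0.17 without Granny Smith replicate 1 and -0.059 without Jonagold replicate 2 (range -0.17 to 0.58). The cause was not tested.

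The replicate block gave 16 higher and 35 lower calls, among them the same 47 genes and, newly, MD08G1131700 at 1.06. Same-numbered libraries of the cultivars had correlations of deviations of 0.16, 0.28 and -0.03. Granny Smith replicates 1 and 2 correlated best with their own number, and replicate 3 with Jonagold replicate 1, at 0.11. Granny Smith replicate 2 and Jonagold replicate 1 were at -0.25. The labels give only a number, and whether same-numbered libraries share more was not tested.

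As alternatives chosen after the data were seen, Jonagold replicate 1 was the lowest in 57 genes with equal totals and 56 with quantile normalization, and Granny Smith replicate 3 was above replicate 1 in 67 and 60. Depth limits the genes called lower most, since 6 had at most 3 reads in every Jonagold library.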
